A study of Mus musculus with 55 samples.

Results

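The OAS family of antiviral synthetases was followed in bulk RNA-seq of sorted mouse bone marrow cells. Its 8 genes, Oas1a, Oas1b, Oas1c, Oas1g, Oas2, Oas3, Oasl1 and Oasl2, were taken by symbol, and each had 1 row among the 55421 genes of the first count table and 1 among the 35975 genes of the second. The first table has 46 libraries of 6 populations: long-term and short-term hematopoietic stem cells (LT-HSC, ST-HSC), and the progenitors called CMP (common myeloid), CLP (common lymphoid), GMP (granulocyte and macrophage) and MEP (megakaryocyte and erythroid). Each population had 4 WT libraries and 4 from mice labelled Tet2-KO (written Tet2-/- here), except 3 WT libraries of LT-HSC and 3 of ST-HSC. The second table has 9 LT-HSC libraries, 3 each labelled WT, Sting-KO and Tet2/Sting-dKO (DKO).

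The animals were on a C57BL/6 background, and Tet2 was a floxed allele deleted by Mx1-Cre after injection of poly(I:C) into young mice, which were then kept for months (study's methods). The Mx1 promoter answers to interferon and acts in many tissues besides blood cells, and poly(I:C) is itself a double-stranded RNA, the ligand of this family. For mice used in flow cytometry a legend speaks of poly(I:C) injection in every animal; whether the WT mice of these libraries received it was not given in the sources used here. Sting-KO was a germline deletion, and DKO mice joined it to the induced Tet2 deletion. Sex and age at sampling are not in the labels.

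OAS proteins sense double-stranded RNA. On binding it the active synthetases join ATP into short 2′-5′-linked oligoadenylates (2-5A), a second messenger of the antiviral response, while Pde12, a phosphodiesterase that degrades 2-5A, holds the pathway back. The genes are induced by type I interferon, and in blood-forming cells interferon is known to drive stem cells out of quiescence.

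All 8 genes lie on chromosome 5 (GENCODE vM21, mm10). Oas2, Oas3, Oas1c, Oas1b, Oas1g and Oas1a belong to a cluster of 10 genes at chr5:120730333-120921652, and the pair of Oas-like genes, Oasl2 and Oasl1, lies at chr5:114896936-114937915. Oas1a (chr5:120896256-120907521) and Oas1g (chr5:120876142-120887613) are on the minus strand, and their coding sequences were 96.73% identical (1065 of 1101 aligned bases). Of the distinct 50-base words of their exons, 57.6% of those of Oas1a and 45.7% of those of Oas1g also occurred in another gene, so the counts of these 2 genes cannot be fully told apart. The other members shared at most 15.1% (Oas1c, in part with the overlapping Gm43069), and Oasl1 overlaps Gm13822. Oas1b (chr5:120812635-120824163, plus strand) and Oas1c (chr5:120800194-120812514, minus strand) start 120 bases apart, facing away from each other. Oas1b is annotated as a polymorphic pseudogene, and C57BL/6 mice are known to carry its truncated form.

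The likeness of Oas1a and Oas1g reaches beyond the exons, which is why their promoters are shown. The 250 bases before each start (RefSeq, GRCm38.p6, minus strand, chr5:120907526-120907775 for Oas1a and chr5:120887614-120887863 for Oas1g), read 5′ to 3′, were 86.9% identical over 244 aligned bases. Capitals mark matches to GAAA, any 2 bases and GAAA again, the core of the interferon-stimulated response element, searched on both strands (TTTC, any 2 bases and TTTC on the other), where overlapping matches run together.
Oas1a: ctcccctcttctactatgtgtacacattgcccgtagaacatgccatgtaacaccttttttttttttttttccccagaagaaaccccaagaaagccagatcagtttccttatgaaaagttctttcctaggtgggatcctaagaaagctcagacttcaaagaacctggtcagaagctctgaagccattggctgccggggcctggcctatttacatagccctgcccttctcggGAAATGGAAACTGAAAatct
Oas1g: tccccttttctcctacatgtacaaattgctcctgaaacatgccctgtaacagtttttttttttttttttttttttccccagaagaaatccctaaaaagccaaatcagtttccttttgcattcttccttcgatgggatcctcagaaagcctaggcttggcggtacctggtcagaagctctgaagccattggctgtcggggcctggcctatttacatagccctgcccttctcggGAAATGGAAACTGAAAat
Oas3 and Oas1c also held this pattern, farther from their starts, and 30 bases of each are shown for comparison (chr5:120777715-120777744 and chr5:120812606-120812635, both read on the minus strand). The match of Oas3 has other bases between its parts. That of Oas1c is the reverse complement of the stretch in Oas1a and Oas1g, and it lies between the starts of Oas1c and Oas1b, nearer to that of Oas1b and on its strand.
Oas3: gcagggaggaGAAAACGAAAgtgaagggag
Oas1c: atgggacTTTCAGTTTCCATTTCccgggaa
The matches ran from -20 to -5 before Oas1a, from -18 to -3 before Oas1g, from -75 to -66 before Oas3 and from -114 to -99 before Oas1c. Oasl1 and Oasl2 had no match in their windows of 300 bases (250 before the start and 50 after it), and Oas1b and Oas2 had no window in the table used. Of all 32851 windows, 1131 (3.44%) held a match, and 4 of the 6 members with a window did.

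Depth was 50458473 to 102148079 counts per library (median 70118186.5) in the first table and 26776103 to 78681188 (median 40641362) in the second. The labels give 200 sorted cells per library, which is not the number in the study's methods. The study's legends describe the LT-HSC libraries as individual mice, while which libraries of different populations share a mouse rests on their numbers. Genes of the sort gates were checked. Slamf1 was at 35.9 CPM or more in LT-HSC and at most 16.4 elsewhere, and Cd48 at most 14.0 in LT-HSC and at least 21.2 elsewhere. Cd34 was at least 619 CPM in ST-HSC and at most 220 in LT-HSC. Ly6a was at least 23.8 CPM in both stem cell populations and at most 8.52 in CMP, GMP and MEP, among which Fcgr3 was highest in GMP (149 or more, against at most 22.1) and Cd34 lowest in MEP (at most 29.3, against at least 388). Il7r was at 233 CPM or more in CLP and at most 10.4 elsewhere, but CLP libraries also held Fcgr3 at up to 121 CPM. Tet2 overlapped between genotypes in all 6 populations (in LT-HSC 12.1 to 40.4 CPM against 11.3 to 14.3 in WT). Counts are sums over a gene and do not single out the deleted part, so Tet2-/- below means the label. In CLP, 33 of the 64 member values (51.6%) were at 3 counts or fewer, against 3.12% to 9.38% in the other populations. The tests of levels among populations and of the mean effect over populations are therefore also given without CLP. The differences between single populations are taken from the fits without it. These choices were made after the data were seen. In bulk libraries fewer cells of a type and less RNA per cell cannot be told apart.

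In the first table the family was most abundant in the stem cells. Per kilobase of exon, Oas1a was its main transcript as a group mean in every group. In counts not divided by length, Oasl2 led in Tet2-/- LT-HSC, at 36.7% of the family against 31.9% for Oas1a. Per kilobase of exon (RPKM), Oas1a was at 29.9 ± 3.13 (mean ± SD, n = 3) in WT ST-HSC and 22.1 ± 3.88 (n = 3) in WT LT-HSC, and at 9.36 ± 3.19 (n = 4) in WT MEP. It made up between 40.0% and 69.4% of the family's RPKM as a group mean in that table, against 47.1%, 36.4% and 29.2% in the LT-HSC of the second table labelled WT, Sting-KO and DKO, where Oasl2 led in DKO at 45.5%. The second place went to different genes: Oasl2 took 18.0% of the family in WT LT-HSC and 20.9% in WT ST-HSC, whereas Oasl1 took 27.4% in WT MEP and 23.2% in Tet2-/- MEP. Oasl1 also came second in Tet2-/- GMP, at 13.7%. Oas2 was the lowest member in most groups, at 0.06 ± 0.06 RPKM in WT GMP (n = 4) and at 0 in all WT CLP libraries.

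**Figure D1:**
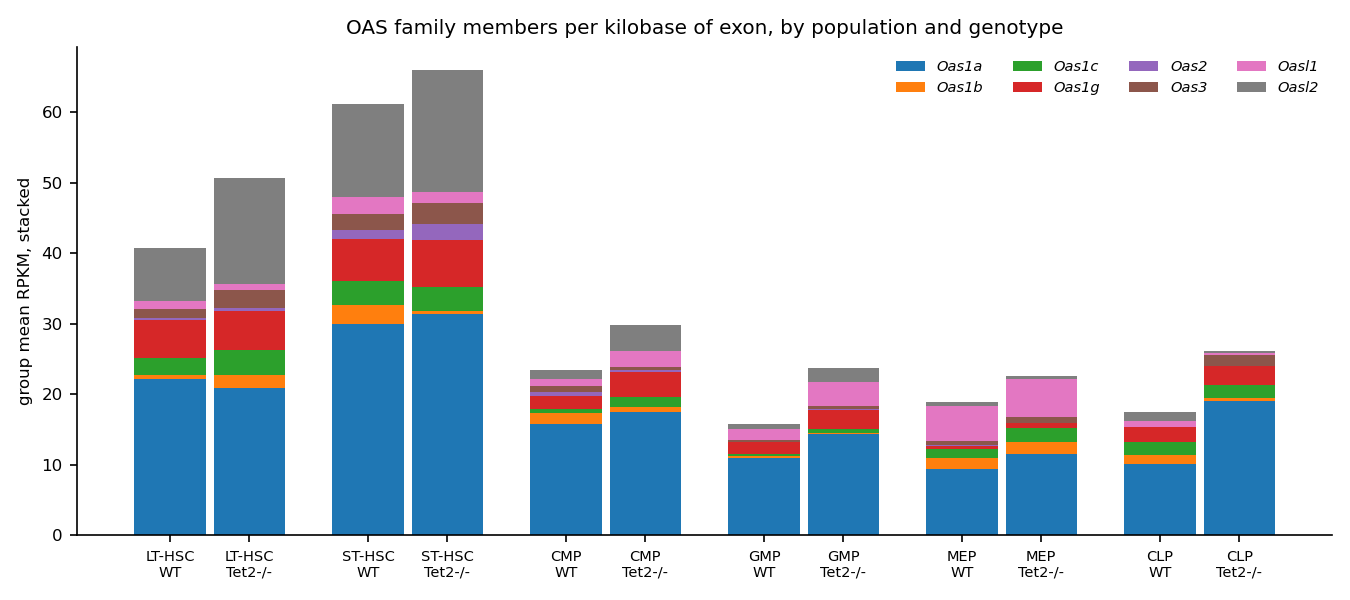
Stacked bars of group mean RPKM (y axis) of the 8 members by population and genotype label (x axis); each colour is 1 gene and a bar is the mean of 3 or 4 libraries. Oas1a is the largest block of every bar, Oasl2 is thickest in LT-HSC and ST-HSC, and Oasl1 stands out in MEP.

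The stack of RPKM means shows the height of the stem cell bars and the change of partner from Oasl2 to Oasl1. Levels below are in CPM (counts scaled to library size by TMM), which compare libraries for 1 gene. Whether a member's level differed among populations was tested in each genotype with an edgeR quasi-likelihood F test with the mouse as a block. In WT 1 of 8 members passed (Oas3, adjusted p = 0.000124; 38.1% of all genes passed), and in Tet2-/- 3 of 8 did (Oasl2, Oas1a and Oas2; 36.7% of all genes). These shares are below or close to the share of all genes. Without the CLP libraries 4 of 8 passed in WT (46.4% of all genes) and 5 of 8 in Tet2-/- (47.5%), also close to the background, and Oas2 no longer passed in Tet2-/- (adjusted p = 0.0829). The pairs given next are from those fits without CLP, called where the adjusted p was under 0.05 and the fold 2 or more. Per pair 0 to 4 of 8 members were called, against 0.502% to 26.8% of all genes. Each called member was higher in the population nearer to the stem cell or, between GMP and MEP, in GMP. The direction of calls over all genes was not counted and the pairs share libraries, so this direction is a description. With the CLP libraries in the fit most of these calls were lost. Among the other 5 populations that fit called in WT only Oas3, in ST-HSC over GMP (adjusted p = 0.0206; 14.7% of all genes called). In Tet2-/- the calls were Oasl2 in LT-HSC (adjusted p = 0.0102; 13.6%) and in ST-HSC (adjusted p = 0.00881; 14.7%) over MEP, and Oas1a in ST-HSC over MEP (adjusted p = 0.0111) and over GMP (adjusted p = 0.0449; 15.4%).

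Oas1a and Oas1g encode synthetases that make 2-5A. Oas1a in WT libraries was at 67.0, 54.5 and 59.3 CPM in ST-HSC, 40.2, 39.7 and 53.4 in LT-HSC, and 38.3, 31.9, 22.7 and 33.9 in CMP. GMP had 29.2, 18.0, 14.4 and 26.4 CPM, and MEP 25.8, 19.0, 10.3 and 20.2. The order ST-HSC, LT-HSC, CMP, GMP, MEP thus runs over a narrow range. No neighbours in it differed by the call, although CMP exceeded GMP in WT at less than 2-fold (0.55, adjusted p = 0.0301, or 0.881 with CLP in the fit; 7.86% of all genes called). Between its ends, ST-HSC exceeded MEP by 1.57 on the log2 scale in WT (SE 0.17, adjusted p = 1.2e-05; 23.7% of all genes called) and by 1.44 in Tet2-/- (SE 0.23, adjusted p = 0.000197; 25.1%); with CLP in the fit the WT difference was 1.45 (adjusted p = 0.330). In CLP Oas1a was uneven, at 36.0, 33.5, 0 and 11.2 CPM in WT and 78.2, 19.0, 16.8 and 39.5 in Tet2-/-. With 0 counts, the limit that 3 counts set was between 0.0273 and 0.0889 CPM, depending on the library, which covers counting error only.

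Oas1g kept the same order over a wider range. Its mean was 12.5 ± 4.02 CPM in WT ST-HSC (n = 3), 11.1 ± 4.21 in LT-HSC (n = 3), 3.87 ± 0.59 in CMP, 3.40 ± 1.02 in GMP and 0.93 ± 0.56 in MEP (n = 4 each). MEP was below GMP by 1.94 (SE 0.47, adjusted p = 0.00545; 22.3% of all genes called) in WT and by 2.38 (SE 0.75, adjusted p = 0.0248; 24.9%) in Tet2-/-, while LT-HSC against ST-HSC and CMP against GMP did not pass. From ST-HSC to MEP Oas1g differed by 3.70 (SE 0.52, with 23.7% of all genes called) in WT and 3.6 (SE 0.79, with 25.1%) in Tet2-/-. With CLP in the fit none of these passed (GMP against MEP adjusted p = 0.232 in WT and 0.240 in Tet2-/-, ST-HSC against MEP 0.0546 and 0.0823).

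Across the 46 libraries log2 CPM of Oas1a and Oas1g went together (Pearson r = 0.68, Spearman rho = 0.85; r = 0.74 over the 38 libraries without CLP). After the 12 group means were taken off r was 0.62, the highest of the 28 pairs of members, ahead of Oas1c and Oas3 at 0.43. The points share populations, library depth and, for this pair, much of the sequence, so the correlation is a description.

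**Figure D2:**
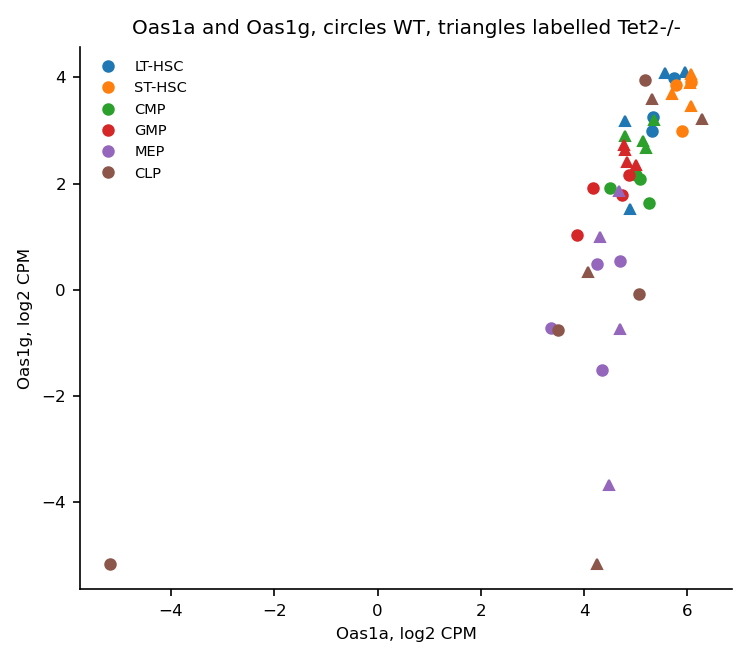
Log2 CPM of Oas1a (x axis) against Oas1g (y axis), 1 point per library, coloured by population, circles for WT and triangles for Tet2-/-. Stem cell libraries lie at the upper right, MEP libraries lower in Oas1g, and 1 WT CLP library has 0 counts of both genes at the lower left.

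In the plot of Oas1g against Oas1a the MEP points drop away from the line of the others, with Oas1g at 0.32 to 1.44 CPM in WT beside Oas1a at 10.3 to 25.8. The sum of both genes, which does not depend on how reads were divided between them but does on whether shared reads were kept, was 72.8 ± 8.13 CPM in WT ST-HSC (n = 3), 55.5 ± 12 in LT-HSC (n = 3), 35.5 ± 6.43 in CMP, 25.4 ± 7.75 in GMP and 19.8 ± 6.74 in MEP (n = 4 each), the same order.

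Oas1b, truncated in this strain, and Oas1c, a further paralog, were low and uneven. Oas1b had group means from 0.28 to 4.83 CPM and was at 0 in 9 of 46 libraries, 5 of them CLP. Oas1c had group means from 0.62 to 8.18 CPM and was at 0 in 5. Neither passed the F test over all populations in either genotype, and without CLP Oas1c passed in Tet2-/- (adjusted p = 0.0437), where LT-HSC exceeded GMP by 2.83 (SE 0.79, adjusted p = 0.0124; 26.8% of all genes called; adjusted p = 0.171 with CLP in the fit).

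Oas2 and Oas3 are the larger synthetases, built from repeated OAS units, and Oas3 is known for binding long double-stranded RNA. Oas2 was at 11.6, 1.45 and 5.85 CPM in WT ST-HSC and at 7.94, 12.3, 18.0 and 8.62 in Tet2-/- ST-HSC. Elsewhere it did not exceed 4.55 CPM, and it was at 0 in 15 of 46 libraries. Between ST-HSC and MEP, Oas2 differed by 6.09 in Tet2-/- (SE 2.24, adjusted p = 0.0493, with 25.1% of all genes called). With CLP in the fit that adjusted p was 0.105, and in WT the difference was 2.41 (adjusted p = 0.344). Oas3 had 12.8, 8.11 and 10.9 CPM in WT ST-HSC and 2.19, 8.21 and 8.01 in WT LT-HSC, against 2.02, 1.39, 0.60 and 0.53 in WT GMP. The stem cells were thus above all GMP libraries of WT. ST-HSC exceeded GMP by 3.16 (SE 0.73, adjusted p = 0.00436, with 25.3% of all genes called) in WT. In Tet2-/- the difference was 2.87 (SE 0.73, adjusted p = 0.00714, or 0.178 with CLP in the fit), and 26.2% of all genes were called. Over CMP, Oas3 was called in Tet2-/- for LT-HSC (2.66, adjusted p = 0.0224, 9.99% of all genes called) and ST-HSC (2.68, adjusted p = 0.0239, 9.72%). With CLP in the fit these adjusted p values were 0.333 and 0.348. In WT the same differences were 0.35 and 1.21 and were not called.

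Oasl2, which has an OAS unit followed by ubiquitin-like repeats, had a wide range. In WT it was at 14.9, 29.4 and 25.3 CPM in LT-HSC and 9.37, 59.2 and 55.2 in ST-HSC. CMP had 0.31, 2.87, 6.10 and 5.22, GMP 0.99, 3.04, 3.04 and 2.01, and MEP 0.65, 3.90, 0.92 and 0.59. All stem cell libraries lay above all libraries of these 3 progenitors. LT-HSC exceeded CMP by 3.2 (SE 0.69, adjusted p = 0.00638; 10.4% of all genes called) and MEP by 4.36 (SE 0.69, adjusted p = 0.000347; 20.5%), while LT-HSC and ST-HSC were not distinguished (-0.47, adjusted p = 0.861). In Tet2-/- the distance from LT-HSC was 2.00 to CMP (SE 0.54, adjusted p = 0.0221; 9.99% of all genes called) and 5.14 to MEP (SE 0.63, adjusted p = 2.39e-05; 23.6%). With CLP in the fit the distance to CMP did not pass (adjusted p = 0.388 in WT and 0.336 in Tet2-/-), nor did that to MEP in WT (adjusted p = 0.0916).

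Oasl1, which lacks synthetase activity and is known to hold back translation of Irf7 mRNA, had its highest group medians in MEP. It was at 13, 12.2, 9.19 and 11.2 CPM in WT MEP and 8.33, 14.1, 13.4 and 11.9 in Tet2-/- MEP, against 6.18, 0.84 and 0.94 in WT LT-HSC. Every MEP library was above every LT-HSC library, but ST-HSC, at 4.12, 12.7 and 0 CPM in WT and 2.98, 7.0, 0.90 and 4.4 in Tet2-/-, had 1 library within the MEP range. GMP reached that range in Tet2-/-, at 9.09, 5.14, 10.4 and 5.12 CPM, but not in WT, at 6.04 CPM or less. The test separated none of these from MEP. LT-HSC minus MEP was -2.80 (adjusted p = 0.168) in WT and -3.13 (adjusted p = 0.0571) in Tet2-/-. ST-HSC minus MEP was -1.49 (adjusted p = 0.470) and -1.62 (adjusted p = 0.258). GMP minus MEP was -1.79 (adjusted p = 0.277) and -0.74 (adjusted p = 0.627). LT-HSC libraries spread from 0 to 6.31 CPM.

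**Figure D3:**
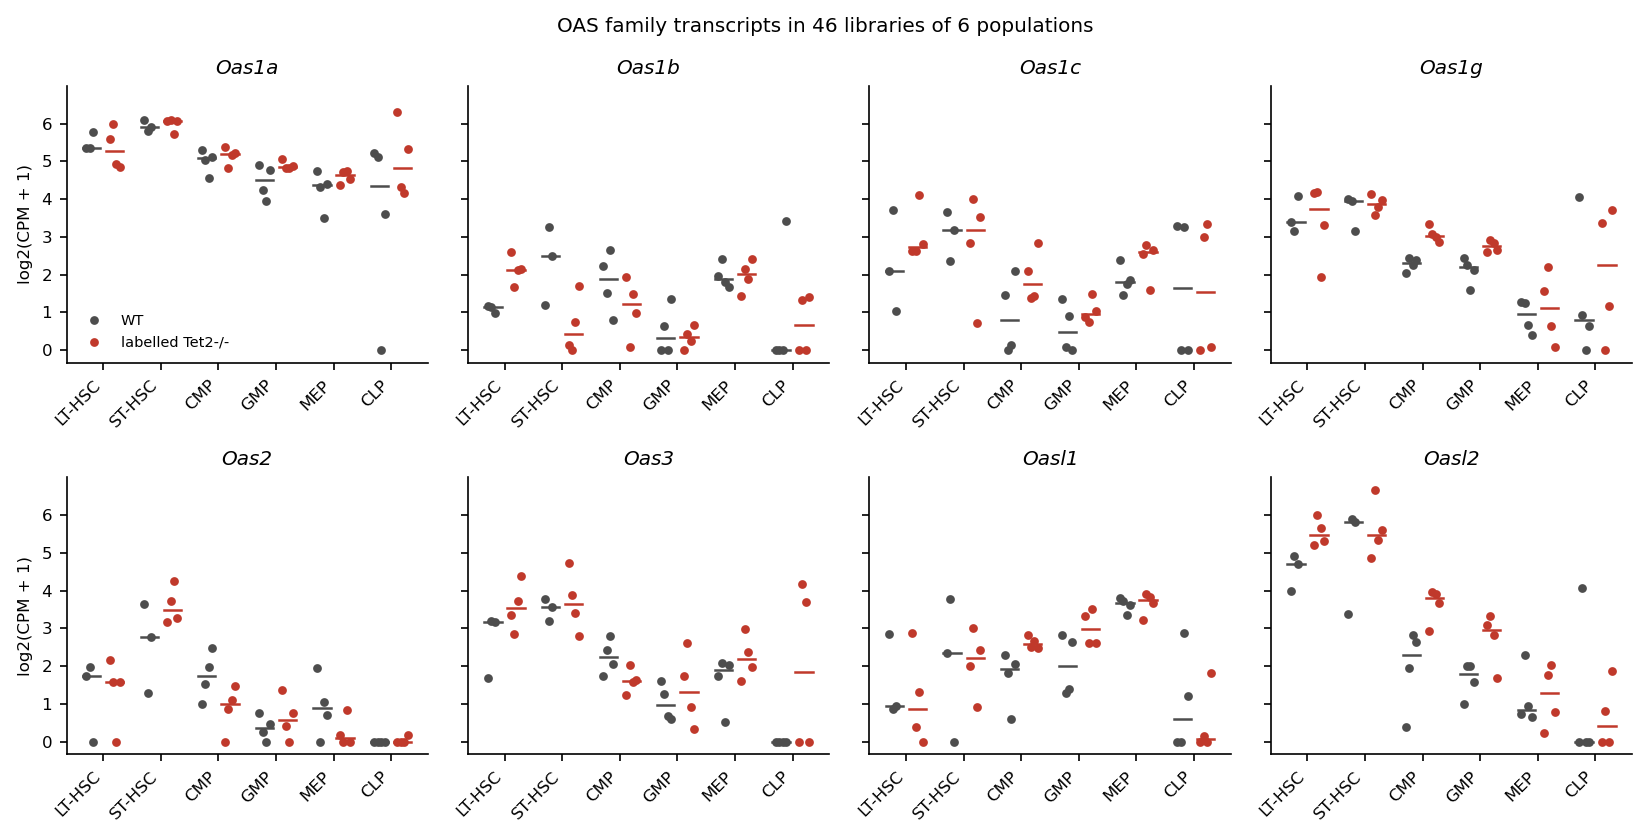
Log2(CPM + 1) (y axis) of each member by population (x axis), 1 point per library, grey for WT and red for Tet2-/-, with bars at the group medians. Oas1a is high in every population outside CLP, and Oasl2 drops from the stem cells to MEP. Oasl1 has its highest group medians in MEP, and CLP points spread down to 0.

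The panels of single libraries show where the genotypes separate and where they overlap. For each population the question was whether the Tet2-/- label goes with a different level, tested with edgeR on the libraries of that population and with the same call.

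In LT-HSC no member was called, and Oasl2 made up the largest part of the difference in the family's summed CPM. Oasl2 was at 36.2, 63.7, 49.4 and 38.8 CPM in Tet2-/- against 14.9, 29.4 and 25.3 in WT. The groups did not overlap, and edgeR gave 1.03 on the log2 scale (SE 0.33; adjusted p = 0.743). The two-sided exact permutation p was 0.0286, the smallest that 4 against 3 libraries allow.

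Oas1b was also apart, at 5.09, 2.21, 3.37 and 3.41 CPM against 1.24, 1.22 and 0.99 in WT (log2 fold change 1.62, SE 0.76, adjusted p = 0.998; exact permutation p = 0.0286). Oas3 had 9.22, 6.22, 12.2 and 19.8 CPM against 2.19, 8.21 and 8.01, which overlap (0.98, SE 0.60, adjusted p = 0.998). Oas1a did not separate: 47.6, 62.3, 29.7 and 27.8 CPM against 40.2, 39.7 and 53.4. The approximate 95% interval of its log2 fold change, from the SE and a normal quantile, was -0.73 to 0.58. Of the 8 members 0 passed the call, as did 0.0245% of all genes in the upward direction, and 1 had an unadjusted p under 0.05 (3.02% of all genes upwards, 2.13% downwards; 0 to 2 members under other settings). The groups did not overlap for 2 of 8 members, both higher in Tet2-/-, against 3.2% of the 16351 genes tested (3.84% were lower without overlap). The summed CPM of the family was 107 to 159 in Tet2-/- and 79.9 to 106 in WT. That sum was also apart in CMP (59.9 to 70.3 against 47.3 to 58.1) and overlapped in the remaining populations. In LT-HSC 6 of 8 members had a log2 fold change above 0 (54.3% of all genes, median 0.34 against 0.06). Summed erythroid markers were 42.8 to 73 CPM in Tet2-/- and 60.7 to 150.1 in WT LT-HSC, and the share of counts from mitochondrial genes was 8.82% to 14.5% against 8.02% to 9.50%; their part in the result was not tested.

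In ST-HSC the genotypes overlapped for all 8 members, while 3.34% of all genes were higher and 4.86% lower without overlap. Oas2 had the largest positive difference (0.91, SE 0.69, adjusted p = 0.999) with the values given above, and Oas1b the largest negative one: 0.10, 0, 0.67 and 2.27 CPM in Tet2-/- against 1.28, 8.57 and 4.65 in WT (-2.62, SE 1.62, adjusted p = 0.979). Oasl2 had 28.2, 100.4, 39.8 and 47.4 CPM against 9.37, 59.2 and 55.2. For Oas1a the approximate 95% interval of the log2 fold change was -0.30 to 0.48, which is too narrow for so few libraries. No member passed the call (0.0185% of all genes did upwards) or, with edgeR, an unadjusted p of 0.05 (2.81% upwards, 3.32% downwards), and DESeq2 also called 0. The mitochondrial share was 10.0% to 13.1% in Tet2-/- and 8.73% to 9.02% in WT, with no overlap.

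In CMP the groups were apart for Oas1g, Oasl1 and Oasl2. Oas1g was at 9.19, 7.44, 6.94 and 6.31 CPM in Tet2-/- and 3.09, 4.43, 3.74 and 4.21 in WT, which edgeR gave as 0.94 on the log2 scale (SE 0.26; adjusted p = 0.0691). Oasl2 was at 6.59, 14.7, 14.1 and 11.9 CPM against 0.31, 2.87, 6.10 and 5.22 (1.69, SE 0.70; adjusted p = 0.226). Oasl1 was at 6.04, 4.64, 5.34 and 4.63 CPM against 3.88, 2.53, 0.51 and 3.13 (1.03, SE 0.54; adjusted p = 0.350).

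For these 3 genes every Tet2-/- library lay above every WT library, with an exact permutation p of 0.0286, the smallest that 4 against 4 allow. The share of all genes with such a separation upwards was 6.77% (9.02% downwards), against 3 of 8 members. None of the 8 passed the call (0.654% of all genes passed it upwards and 3.92% downwards), and 2 had an unadjusted p under 0.05, both upwards (8.09% of all genes; 0 to 3 members under other settings). DESeq2 gave Oas1g an adjusted p of 0.000389 at a log2 fold change of 0.95, under 2-fold, and so also called 0 members. Oas1a, at 41.0, 27.5, 35.1 and 36.4 CPM against 38.3, 31.9, 22.7 and 33.9, gave 0.14 (approximate 95% interval -0.24 to 0.51). The sum of Oas1a and Oas1g gave 0.25. Oas3 went the other way, with 1.35, 3.08, 1.99 and 2.08 CPM in Tet2-/- against 2.32, 4.38, 5.95 and 3.13 in WT (-0.90, SE 0.44, adjusted p = 0.312), and Oas2 had 0, 0.83, 1.15 and 1.80 against 0.996, 1.88, 2.91 and 4.55 CPM. The signs within the family were thus mixed, 5 of 8 above 0 against 52% of all genes. Summed macrophage and monocyte markers (8 genes) were 80.5 to 319 CPM in Tet2-/- and 207 to 515 in WT; Marco was at 0 in all 8 CMP libraries and C1qa in all but 1. The genotypes were also apart in mitochondrial share (7.85% to 8.37% in Tet2-/- and 5.94% to 6.57% in WT) and in depth (71372007 to 102148079 counts and 63166885 to 70924660). The part of these in the result was not tested.

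The same 3 genes had the smallest p in GMP. Oas1g was at 5.04, 6.62, 6.16 and 5.30 CPM in Tet2-/- against 4.43, 3.75, 2.01 and 3.40 in WT, with no overlap (0.74, SE 0.29; p = 0.0268, adjusted p = 0.2; exact permutation p = 0.0286). Oasl2 was at 7.57, 9.10, 6.10 and 2.24 CPM against 0.99, 3.04, 3.04 and 2.01 (1.41, SE 0.49; p = 0.0143, adjusted p = 0.136; exact permutation p = 0.0857). Oasl1 was at 9.09, 5.14, 10.4 and 5.12 CPM against 6.04, 1.46, 1.64 and 5.18 (1.03, SE 0.48; adjusted p = 0.304).

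A single library, Tet2-/- number 5 with 2.24 CPM, made the Oasl2 groups overlap; without it Oasl2 passed the call (1.70, adjusted p = 0.0451; 0.299% of all genes upwards), as it did with DESeq2 on all libraries (1.42, adjusted p = 0.0395; 0.957%). With edgeR on all libraries 0 of 8 members passed (0.308% of all genes upwards, 4.07% downwards) and 2 had an unadjusted p under 0.05, both upwards (7.35% of all genes, 9.97% downwards; 0 to 4 members under other settings). The groups did not overlap for 1 of 8 members, against 5.89% of all genes upwards and 7.28% downwards. Of the 8 members 7 were above 0 (52.9% of all genes), at a median log2 fold change of 0.83 against 0.03 for all genes. Oas1a was at 32.3, 27.4, 27.6 and 28.4 CPM against 29.2, 18.0, 14.4 and 26.4 (0.36, SE 0.21, adjusted p = 0.430), and the sum of Oas1a and Oas1g differed by 0.42, which was not called either. Summed neutrophil markers (6 genes, nearly all S100a8) were 4.77 to 20.1 CPM in Tet2-/- and 15.7 to 51.6 in WT, and the mitochondrial share was 4.74% to 5.09% against 3.64% to 4.60%, without overlap; their part was not tested.

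**Figure D4:**
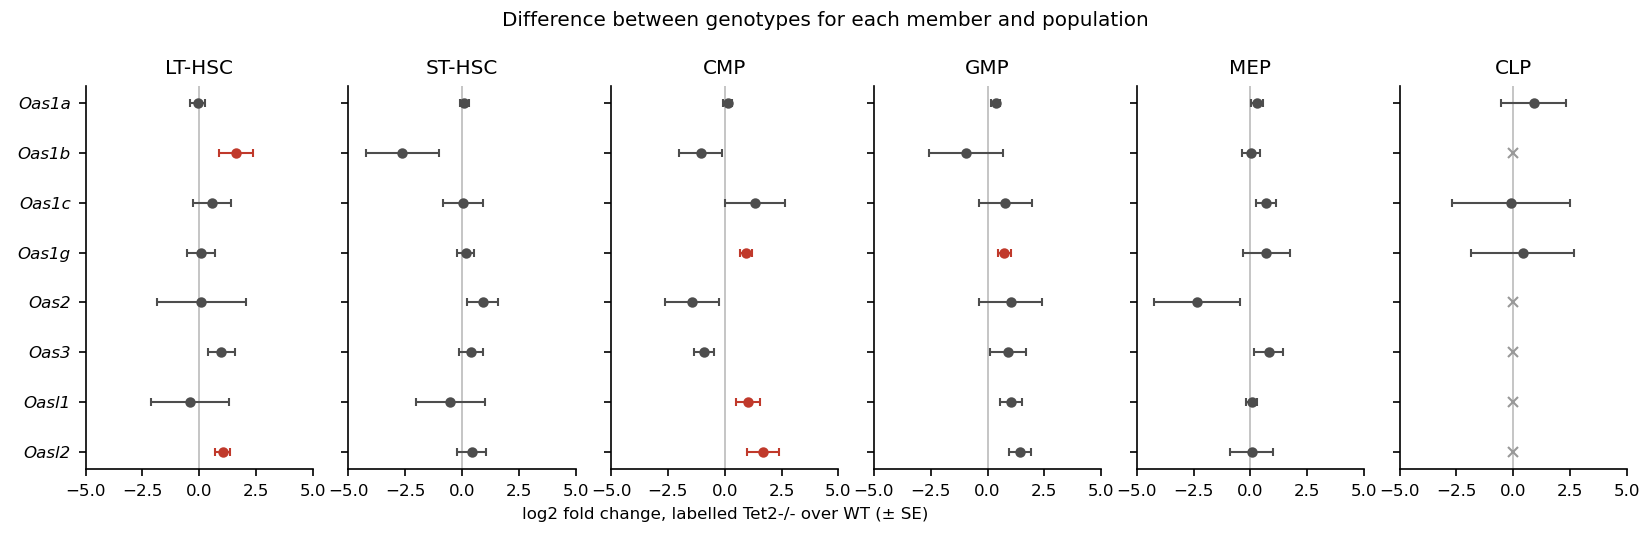
Log2 fold change of Tet2-/- over WT (x axis, ± SE) for the 8 members in 6 populations; red points are members whose libraries do not overlap between genotypes, grey crosses are members not tested. Red points are Oas1b and Oasl2 in LT-HSC, Oas1g, Oasl1 and Oasl2 in CMP and Oas1g in GMP, all to the right of 0.

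The plot of differences by population shows Oasl2 right of 0 in LT-HSC, CMP and GMP by more than its SE. In MEP no member separated. Oas1a was at 19.7, 25.4, 25.7 and 22.2 CPM in Tet2-/- against 25.8, 19.0, 10.3 and 20.2 in WT (0.29, SE 0.27, adjusted p = 0.717). Oasl1, whose group medians were highest in MEP, was 11.9 ± 2.57 against 11.4 ± 1.65 CPM (n = 4 each). The approximate 95% interval of its log2 fold change ran from -0.39 to 0.50. Oas1c had 4.87, 5.86, 2.03 and 5.28 CPM against 4.19, 1.76, 2.39 and 2.63 (0.70, SE 0.43, adjusted p = 0.5). No member passed the call (0.147% of all genes upwards, 4.21% downwards) or an unadjusted p of 0.05 (6.46% upwards, 9.94% downwards), 0 were apart between genotypes (4.65% of all genes upwards, 8.44% downwards), and DESeq2 also called 0. Of the 8, 7 were above 0 against 54.2% of all genes, at a median of 0.18.

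In CLP only Oas1a, Oas1c and Oas1g passed the low-count filter, and 0 of 3 were called (0.00766% of all genes upwards), with 0 at an unadjusted p under 0.05 (1.67% upwards, 1.98% downwards) and 0 apart between groups (2.21% upwards, 1.82% downwards); 2 of 3 were above 0, against 54.1% of all genes. Oas1a, with the values given above, differed by 0.90 with an SE of 1.42. Oas3 was at 0 in all 4 WT libraries and at 0, 17.2, 11.9 and 0 CPM in Tet2-/-, so 2 libraries carried it; it was under the low-count filter, and DESeq2 (adjusted p = 1.24e-10; 1.91% of all genes upwards) and the fit of all 46 libraries (adjusted p = 0.000144; 4.48%) called it higher on those 2. Oasl2, abundant in the stem cells, was at 0 in 3 of 4 WT and 2 of 4 Tet2-/- CLP libraries, with 15.8 CPM in the remaining WT library.

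Over all 6 populations the mean effect of the Tet2-/- label was estimated with limma-voom, with libraries of 1 genotype and number taken as 1 mouse. The lowest p values were those of Oas1a, at 0.65 (SE 0.27; adjusted p = 0.163), and Oas3, at 1.07 (SE 0.51; adjusted p = 0.252), while Oas1c was at 1.30 (SE 0.75; adjusted p = 0.370) and Oasl2 at 0.86 (SE 0.57; adjusted p = 0.448). None of the 8 passed an adjusted p of 0.05, as did 1.99% of all genes upwards, and 6 of 8 were above 0 (49% of all genes). Without CLP Oas1a averaged 0.22 (adjusted p = 0.290) and Oas3 0.35 (adjusted p = 0.666), while Oas1c averaged 1.54 (adjusted p = 0.109) and Oasl2 0.94 (adjusted p = 0.238). By exact permutation over the 8 mice (CMP, GMP, MEP and CLP) Oas1a had p = 0.229 and Oas3 p = 0.314. The smallest p possible there is 0.0286. Under another setting, edgeR without a mouse block, Oas3 passed at 2.37 (adjusted p = 0.0044), as did 2.93% of all genes upwards. The effect in LT-HSC minus the mean effect of the other populations was tested with edgeR without a mouse block. It was fitted only with CLP among the others. The difference was 0.74 for Oasl2 (SE 1.56) and 2.85 for Oas1b (SE 2.20). Of the 8 members 0 passed (0.121% of all genes upwards, 0.0358% downwards). At an unadjusted p of 0.05 there were 0 (2.63% upwards, 2.41% downwards), which is near the background. That count was also 0 under the other settings, which include limma-voom with a mouse block. A difference of effect between LT-HSC and the others was not shown, and the fit without CLP was not made.

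The genes around the family in the pathway moved unevenly. Pde12, which degrades 2-5A, was lower in Tet2-/- GMP, at 19.9 to 24.1 CPM against 47.6 to 71.9, and passed the call (-1.56, SE 0.17, adjusted p = 0.000131). In CMP it was at 26.4 to 29.2 against 40.0 to 58.1 CPM (-0.84, SE 0.15, adjusted p = 0.00919, under 2-fold), and in MEP at 29.8 to 51.4 against 59.1 to 68.8. Of 13 genes of the 2-5A and dsRNA response, Pde12 in GMP was the only one called in any population (4.07% of all genes were called lower there, so 1 of 13 is not far from the background).

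Of 11 genes of type I interferon signalling, Ifnar2, a chain of the interferon receptor, was called lower in CMP (19.6 to 31.7 against 71.0 to 86.0 CPM; -1.57, SE 0.19, adjusted p = 0.00111) and in MEP (16.9 to 22.4 against 32.6 to 47.8; -1.01, SE 0.17, adjusted p = 0.0066), where 3.92% and 4.21% of all genes were called lower. Of 17 core interferon-stimulated genes, Ifi44 was called higher in CMP (35.6 to 51.1 against 7.34 to 22.8 CPM; 1.30, SE 0.31, adjusted p = 0.0378) and GMP (11.1 to 24.4 against 1.71 to 7.28; 1.84, SE 0.45, adjusted p = 0.033), and Trim30a in MEP (36.6 to 50.3 against 16.1 to 22.9; 1.10, SE 0.18, adjusted p = 0.00584). Of all genes 0.654% were called higher in CMP, 0.308% in GMP and 0.147% in MEP. In LT-HSC none of these lists had a called gene. There Ifit3 had the smallest p of the lists, at 0 in all 3 WT libraries and 2.83 to 6.53 CPM in Tet2-/- (adjusted p = 0.194), followed by Trim25, at 40.5 to 75.2 against 18.8 to 31.8 CPM (1.11, SE 0.32, adjusted p = 0.687).

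In ST-HSC the smallest p values of the lists were those of Zc3hav1, a binder of viral RNA (65.1 to 134 CPM against 162 to 229; -1.0, SE 0.26, adjusted p = 0.405), and Ifit1 (27.3 to 39.8 against 13.5 to 17.9; 0.95, SE 0.28, adjusted p = 0.526). In CLP they were those of Trim30a (0.82, SE 0.28) and Abce1 (0.92, SE 0.33), both at an adjusted p of 1.0. The core interferon-stimulated genes were above 0 for 13 of 16 in LT-HSC (median 0.53), 12 of 17 in ST-HSC (0.55), 10 of 16 in CMP (0.25), 15 of 16 in GMP (0.78), 10 of 15 in MEP (0.41) and 8 of 11 in CLP (0.62). Of all genes 52% to 54.3% were above 0 in these comparisons, with medians between 0.03 and 0.07. In ST-HSC the other two lists went the other way, with 5 of 13 genes of the 2-5A and dsRNA response above 0 (median -0.12) and 4 of 11 of type I interferon signalling (-0.08). In the other populations they had 8 to 10 of 13 (medians 0.16 to 0.39) and 6 to 9 of 11 (0.11 to 0.38) above 0. No type I or III interferon gene of a list of 7, and none of the paralogs Oas1d, Oas1e, Oas1f and Oas1h, had counts enough to be tested in any population.

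By likeness, the 5 genes whose log2 CPM over the 46 libraries followed the mean of the members most closely were Sox6 (Pearson r = 0.91), Pcdh7 (0.89), Cfap54 (0.89), Rab38 (0.89) and Gsta4 (0.88), where the median gene had 0.15 and the 99th percentile was 0.78. After the 12 group means were taken off they were Gm24451 (0.76), Stip1 (0.75), Helz2 (0.75), Brox (0.73) and Agap3 (0.73), with a 99th percentile of 0.61. The libraries share population, depth and the number of genes detected, so these values describe likeness of pattern only.

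The second table, of LT-HSC labelled WT, Sting-KO and DKO, holds far fewer genes per library (9381 to 11527 against 13754 to 20964), and 38 of its 72 member values (52.8%) were at 3 counts or fewer. Sting (Tmem173), the targeted gene, went against labels: it was at 122, 0 and 63.5 CPM in the libraries labelled Sting-KO, at 0, 0.19 and 26.2 in DKO and at 45.3, 34.1 and 0 in WT. Tet2 was at 24.7, 0 and 0 CPM in WT, 9.55, 41.9 and 1.51 in Sting-KO and 41.4, 19.6 and 1.30 in DKO. The study describes both lines as lacking STING in bone marrow cells, and counts summed over a gene do not single out a deleted part. Directions between these groups are given by label.

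Oas1a and Oasl2 were the members detected above 3 counts in all 9 libraries. Oasl2 was at 83.3, 36.9 and 178 CPM in the libraries labelled WT, 99.1, 77.7 and 47.6 in Sting-KO and 122, 0.10 and 137 in DKO. The library labelled DKO 2 held 7 counts of it while the other 8 held at least 1261. Oas1a was at 46.4, 53.1 and 171 CPM in WT, 14.0, 114 and 37.3 in Sting-KO and 26.5, 54.9 and 37.6 in DKO. All groups overlapped for both genes. Oas1a differed by -1.25 in DKO against WT (SE 0.80, adjusted p = 0.648) and by -0.71 in Sting-KO against WT (SE 0.94, adjusted p = 1.0), comparisons that share the WT libraries. Without WT 3 these differences were -0.37 and 0.11.

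Oas1c was at 0, 34.3 and 8.79 CPM in WT, 0.038, 42.3 and 0 in Sting-KO and 0, 83.3 and 2.99 in DKO, and Oas1g at 7.06, 16.4 and 0.14, 0.038, 22.4 and 3.95, and 0.031, 26.0 and 14.7. Other members were on in few libraries or none. Oas1b had 61.1 CPM in the library labelled Sting-KO 1 and 0 in the other 8, Oas2 was at 0 in all 9, and Oas3 had 46.9 CPM in WT 3 and 29.7 in Sting-KO 2 and at most 2 counts elsewhere. Oasl1 had 6.33 CPM in Sting-KO 2 and at most 2 counts in the rest. Only Oas1a, Oas1c, Oas1g and Oasl2 passed the low-count filter. With edgeR 0 of these 4 were called in DKO against WT (0.0411% of all genes upwards, 0.616% downwards), in Sting-KO against WT (0% both ways) or in DKO against Sting-KO (0% upwards, 0.159% downwards), and DESeq2 called 0. In DKO against WT 2 of 4 were above 0 (48% of all genes), 0 had an unadjusted p under 0.05 (5.36% upwards, 7.87% downwards) and 0 were apart between labels (11.2% upwards, 13.9% downwards); 0 of 4 had an unadjusted p under 0.05 in Sting-KO against WT (2.25% of all genes upwards, 2.46% downwards; 0 apart, 6.45% and 7.34%; 1 of 4 above 0, 51.1% of all genes) and in DKO against Sting-KO (3.02% and 5.28%; 0 apart, 7.77% and 10.9%; 3 of 4 above 0, 51.9%). The exact permutation test of 3 against 3 cannot go under 0.1.

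**Figure D5:**
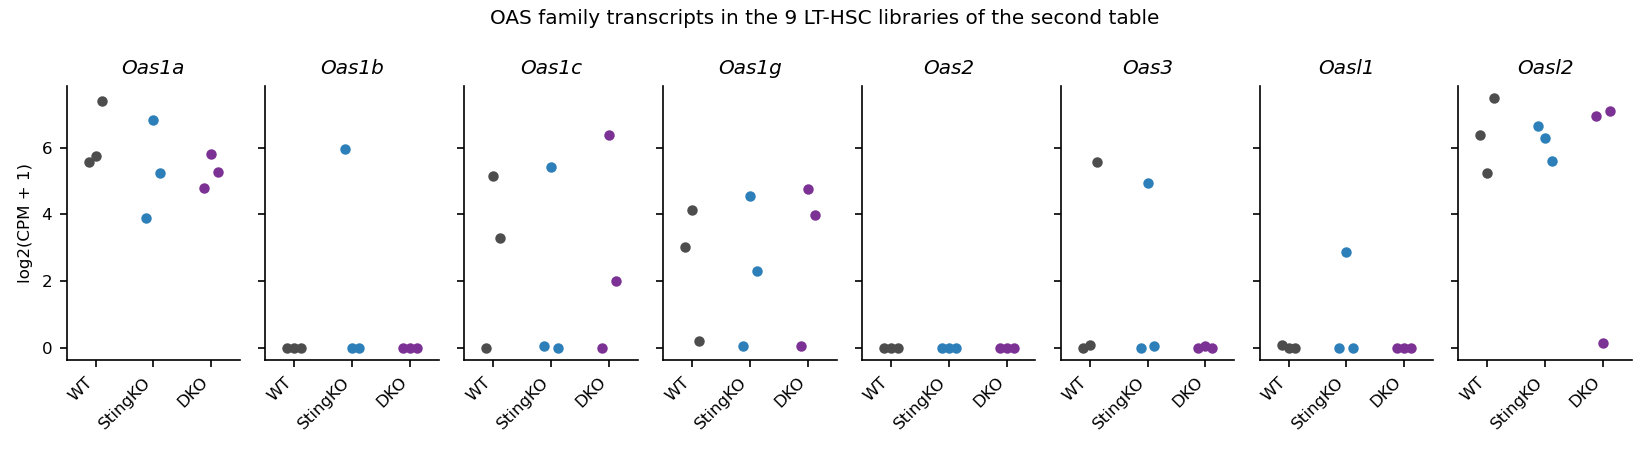
Log2(CPM + 1) (y axis) of the 8 members in the 9 LT-HSC libraries of the second table by label (x axis), 1 point per library. Oas1a is high in all libraries and Oasl2 in all but DKO 2, where it is near 0 at 7 counts. Oas1c and Oas1g spread widely within each label. Oas2 is at 0 throughout, and Oas1b, Oas3 and Oasl1 are at or near 0 in most libraries.

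The plot of the second table shows labels that overlap for the 4 members tested. From the pathway lists the smallest p values were those of Jak1, a kinase of the interferon receptor, at 53.3 to 102.04 CPM in Sting-KO (-1.73, SE 0.42, adjusted p = 0.709) and 61.2 to 165 in DKO (-1.38, SE 0.48, adjusted p = 0.244) against 187 to 356 in WT. Trim25 was at 0.95 to 27.1 CPM in DKO against 46 to 206 in WT (-3.68, SE 1.32, adjusted p = 0.260) and 65.0 to 184 in Sting-KO. Ifi44 was at 95.9 to 236 CPM in Sting-KO against 40.0 to 103 in WT (1.45, SE 0.56, adjusted p = 0.967). Pde12 had 0, 0 and 0.19 CPM in DKO, lowest to highest, against 4.85 to 65.0 in Sting-KO (adjusted p = 0.488).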

How the data were processed

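Cells were sorted from mouse bone marrow and made into SMART-Seq2 RNA-seq libraries. The authors deposited raw read counts per gene in a table for each set. The submitters' processing notes name Trim Galore 0.6.7, HISAT2 7.5.0, DESeq2 and the builds mm10 and mm9. The study's methods name mm10 and other versions of Trim Galore and HISAT2. The counting program, its annotation and any use of strand are not given in the sources used here. From these deposited counts, genes were filtered (filterByExpr), scaled by TMM and tested with edgeR 4.0.16 (quasi-likelihood, R 4.3.3) within the libraries compared, with Benjamini-Hochberg adjustment over all genes tested. A call needed an adjusted p under 0.05 and a fold of at least 2. The mean effect over populations was fitted with limma 3.58.1 (voom, duplicateCorrelation by mouse), and exact permutation tests were two-sided. Log2 CPM used a prior count of 2, and RPKM used the exon lengths of the second table. DESeq2 1.42.0 was an alternative, as were RLE factors, unfiltered genes, a joint fit of each table, a replicate block and leaving out each library. Scripts were tested on simulated data, and figures drawn with matplotlib 3.10.9. All members were described in each comparison; of other listed genes, the targeted genes, called genes and the 2 of lowest p per comparison were named, and 1 further gene that the rule names is not reported here. Members and lists were chosen with earlier results of these data known. Fits without CLP and of Oas1a and Oas1g summed were added after seeing the data.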

Additional observations from a re-analysis of the deposited data

Results flagged for a closer look

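Of 78 groups of 4 libraries with a spread, 9 had 1 library apart from the others by Dixon's test at 95%, where chance alone marks about 1 group in 20. That rate does not apply to 3 of them (Oas1b and Oasl2 in WT CLP, Oas2 in Tet2-/- CLP), where the other 3 libraries were at 0 and the test passes by construction. In CLP these were Oas1b in WT 5 (9.63 CPM), Oas1g in WT 2 (15.5 CPM), Oasl2 in WT 3 (15.8 CPM), Oas2 in Tet2-/- 5 (0.13 CPM) and Oasl1 in Tet2-/- 5 (2.52 CPM), each above the other 3 libraries. Elsewhere they were Oas1c in Tet2-/- LT-HSC 4 (16.3 CPM), Oas2 in Tet2-/- MEP 4 (0.80 CPM) and Oasl2 in WT MEP 3 (3.90 CPM), all high, and Oas1a in Tet2-/- ST-HSC 4 (52.0 CPM), low.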

How the results depend on the processing

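No member passed the call between genotypes in LT-HSC, ST-HSC, CMP, MEP or the second table under any other setting tried. In GMP DESeq2 called 1 member (0.957% of all genes upwards) and leaving out single libraries gave 0 to 1 (0.299% without Tet2-/- 5), Oasl2 each time. In CLP DESeq2 called 1 (1.91%) and the fit of all libraries 1 (4.48%), both Oas3, which has 0 counts in every WT library there and was removed by the low-count filter of the reported fit. Averaged over populations, edgeR without a mouse block called 1 (Oas3, 2.37, adjusted p = 0.0044; 2.93%). Levels across populations passed for 2 members in WT without a mouse block (44.6% of all genes), and, without CLP, for 4 in WT and 5 in Tet2-/-; the cause was not tested. Of 71 member differences, 34 changed sign under at least 1 other setting (78 of 811 values): 4 of 8 in LT-HSC, 5 of 8 in ST-HSC, 0 of 8 in CMP, 2 of 8 in GMP, 4 of 8 in MEP, 2 of 3 in CLP, 3 of 8 in each result over populations and, in the second table, 3 of 4 in DKO against WT and 4 of 4 in each other comparison. Outside CMP the counts of members above 0 thus rest partly on the setting. Leaving out single libraries gave -0.74 to 0.49 for Oasl2 in DKO against WT (0.32 without DKO 2, 0.49 without WT 3; -1.57 with a replicate block), and in Sting-KO against WT -1.82 to 0.11 for Oas1a and -0.81 to 0.27 for Oasl2. Within a population, WT and Tet2-/- libraries of the same number had deviations correlated at r from -0.0226 to 0.0347 (-0.073 to 0.0236 between labels in the second table) and were not taken as pairs; across populations, libraries of 1 genotype and number had a median r of 0.0258, against -0.00864 for other numbers. With the number as a replicate block the count of called members stayed at 0 in each comparison; Oas1g in CMP gave 0.94 (adjusted p = 0.198) and Oasl2 in GMP 1.36 (adjusted p = 0.196). Zeros in CLP and the second table limit what low members can show.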
